A study of Homo sapiens with 10 samples.

Results

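The cells carrying wild type KLF11, its A347S mutant or its Δ486 mutant were set together against those carrying the EAPP mutant or empty vector, in a search for small changes that the 3 constructs share and that no single pair of constructs shows. The first 3 are here called the pooled constructs. The comparison takes 6 arrays against 4, which is all 10 arrays of the series, and every transcript cluster with a gene symbol, 20961 of 28869, a cluster being a set of probes that the array design reads as 1 transcribed locus. The division was chosen by values measured on these same arrays, since the EAPP arrays were already known to lie near those of empty vector and the other 3 constructs to lie together. Every count and difference of the pooled comparison below is therefore a description of sizes against the spread between arrays, and no test of the division itself.

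All cells were Panc1, an established human line from a pancreatic carcinoma, transduced with adenovirus at a multiplicity of infection of 150 and harvested at 48 h. The 5 constructs were wild type KLF11, KLF11 with the A347S substitution in its proline-rich domain, KLF11 with the Δ486 deletion at its C-terminus, KLF11 with the EAPP substitution in its Sin3-interacting domain, and an empty vector, which carries no KLF11 and is the virus control. Each was measured on 2 Human Gene 1.0 ST arrays, with KLF11, A347S and Δ486 giving the 6 arrays and EAPP and empty vector the 4. The sample titles number the arrays as biological replicates, while the extract protocol describes technical duplicates of RNA pooled from triplicate cultures, so the errors below measure the spread between arrays and may leave out that between cultures. The construct is overexpressed over the gene that Panc1 cells carry, in 1 cell line and at 1 time.

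KLF11 is a Krüppel-like transcription factor that binds GC-rich promoter sites through zinc fingers at its C-terminal end and recruits chromatin machinery through separate domains. The EAPP substitution breaks its coupling to the Sin3 corepressor and histone deacetylases, A347S its coupling to WD40 proteins such as G protein beta subunits, and Δ486 its coupling to HP1 and the methyltransferases of lysine 9 on histone H3. In the pancreas, KLF11 is known for restraining growth downstream of TGF-beta and for controlling metabolic genes, and variants of it cause a form of diabetes in the young.

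The KLF11 cluster itself read 8.82 and 8.85 with KLF11, 8.85 and 8.88 with A347S, 8.72 and 8.83 with Δ486, 8.78 and 8.68 with EAPP and 8.37 and 7.75 with empty vector. The first EAPP array lay above the lowest array of Δ486 and only the empty vector arrays stood apart, so KLF11 did not follow the division of 6 against 4. Its pooled difference was 0.43 (standard error 0.10), and EAPP stood 0.67 above empty vector. The sources used here do not say whether its probes read the transduced copies. The array medians lay between 6.81 and 6.87 and the 2 arrays of a construct correlated at 0.996 to 0.997 across clusters.

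Markers of a ductal epithelium were present at a median log2 level of 8.27, and 4 of the 9 were consistently lower in the pooled constructs, where their summed log2 level was 76.6 to 78.5, against 79.2 to 80.5 with EAPP and empty vector. KRT19, a keratin of ductal cells, read 9.29 to 10.01 (median 9.67) in the pooled constructs, against 10.39 to 10.91 with EAPP and empty vector. The others that were lower were KRT8 and KRT18, also keratins, and SOX9, a ductal transcription factor. KRT18 lost its call, at -0.21, when the empty vector arrays were left out. Of 9 mesenchymal markers, VIM and ZEB1 were lower and SNAI2 higher, with summed levels of 62.1 to 63.2 in the pooled constructs, against 62.8 to 63.6 with EAPP and empty vector. ZEB1 and SNAI2 lost their calls under 17 and 12 of the 22 alternatives run for single genes. None of the 5 acinar, 5 islet, 4 leukocyte and 4 endothelial markers measured was consistently higher or lower, by the criterion given next, and the median levels of these lists were 4.99 to 5.77. The part of these marker changes in the results below was not tested, and in such bulk RNA fewer cells of a type cannot be told apart from less RNA per cell.

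For each cluster the pooled difference is the mean of the KLF11, A347S and Δ486 means minus the mean of the EAPP and empty vector means, on the log2 scale, with each construct given equal weight. A cluster is called consistently higher or lower where the Benjamini-Hochberg adjusted p of limma was under 0.05 over all clusters and all 6 arrays lay on 1 side of all 4. By this criterion 2195 clusters were higher in KLF11, A347S and Δ486 cells, 10.5% of those fitted, and 3004 were lower, 14.3%. The median standard error of a pooled difference was 0.06, against 0.10 for a single pair of constructs. Most of the differences were small. Of the 5199 clusters, 2079 differed by less than 1.25-fold, 2215 by 1.25-fold to 1.5-fold and 905 by 1.5-fold or more, so that 82.6% lay under 1.5-fold. The few large ones went mainly upward, with 101 higher and 31 lower by at least 2-fold. The smallest difference that met the criterion was 0.12. At its edge, PIK3CD stood just inside with a pooled difference of -0.14 and HS6ST1, by its adjusted p, just outside with -0.15.

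**Figure D1:**
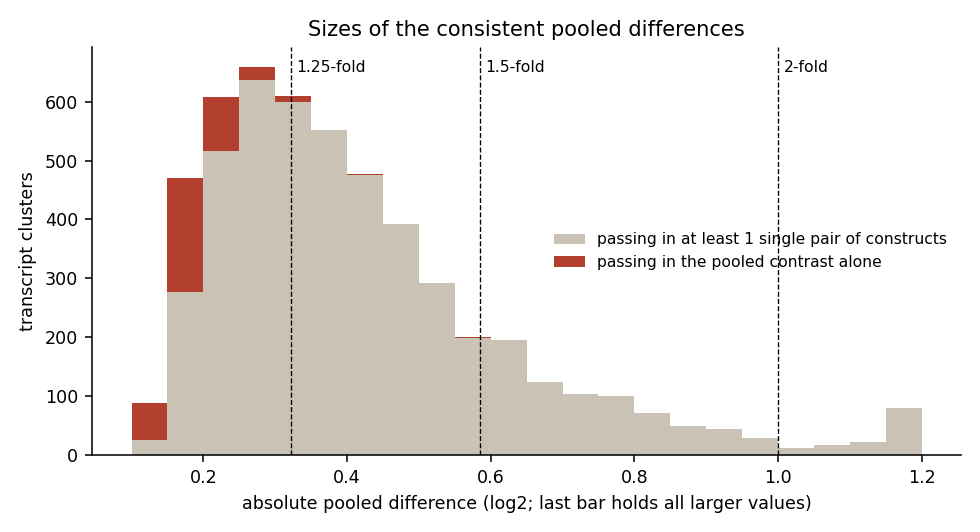
Number of transcript clusters (vertical axis) by the size of the pooled difference (log2, horizontal axis) among the 5199 that met the criterion, in red the 382 that met it in the pooled comparison alone; dashed lines mark 1.25-fold, 1.5-fold and 2-fold, and the last bar holds all larger values. The red clusters lie almost wholly left of the 1.25-fold line.

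The genes with the largest pooled rises included some of cilia and flagella. RFPL4A, whose RING finger product is known in oocytes, read 8.51 and 8.11 with KLF11, 8.87 and 8.99 with A347S, 8.29 and 8.65 with Δ486, 6.92 and 6.24 with EAPP and 5.17 and 5.33 with empty vector. Its EAPP arrays lay between the other groups, and the pooled difference was 2.65 (standard error 0.14, 6.29-fold), with 2.62 on a second cluster of the same symbol. RFPL4A has near-identical copies whose transcripts the probes may share. ROPN1L, a protein of the sperm flagellum, read 8.01 and 7.84 on the KLF11 arrays, 8.38 and 8.55 on those of A347S and 8.35 and 8.44 on those of Δ486, against 6.41 and 6.52 on the EAPP arrays and 5.81 and 6.10 on the empty vector arrays, a difference of 2.05. DNAI3, a dynein intermediate chain, read 6.70 to 7.29 (median 6.90) in the pooled constructs, against 4.90 to 5.10 with EAPP and empty vector, a difference of 1.94. Its 4 low arrays spanned 0.20 and its 6 high ones 0.59. DNAJB4, a cochaperone of the HSP40 family, read 10.93 and 10.72 with KLF11, 11.15 and 11.23 with A347S, 10.60 and 10.82 with Δ486, 9.42 and 9.04 with EAPP and 8.51 and 8.58 with empty vector. The 2 EAPP arrays again lay above empty vector, and the pooled difference was 2.02. ZNF204P, a zinc finger pseudogene, differed by 2.58 (standard error 0.17), KIAA0825, a gene linked to limb development, by 2.24, LMBRD2, a multipass membrane protein, by 2.02 and RADX, which binds single-stranded DNA at replication forks, by 1.91. For ZNF204P the empty vector arrays, at 3.82 and 4.33, lay above the EAPP arrays, at 3.56 and 3.46.

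The largest falls included several enzymes and carriers of metabolism. BDH1, the mitochondrial dehydrogenase that interconverts the ketone bodies, read 5.65 and 5.90 with KLF11, 5.99 and 6.01 with A347S, 5.84 and 5.87 with Δ486, 8.06 and 8.27 with EAPP and 7.03 and 6.92 with empty vector. All 6 pooled arrays lay below empty vector and both EAPP arrays lay above it, which makes its difference of -1.69 (standard error 0.07) a mean of -1.10 against empty vector and -2.29 against EAPP. IDH1, the cytosolic isocitrate dehydrogenase, read 9.78 and 9.77 on the KLF11 arrays, 9.21 and 8.99 on those of A347S and 9.40 and 9.44 on those of Δ486, against 10.70 and 10.80 on the EAPP arrays and 11.21 and 11.19 on the empty vector arrays, and lay 1.54 lower, or 2.91-fold. SFXN2, a mitochondrial amino acid carrier, read 6.21 to 6.97 (median 6.71) in the pooled constructs, against 8.20 to 8.27 with EAPP and empty vector. Its 4 high arrays spanned 0.07, and it lay 1.60 lower. KYAT3, a kynurenine aminotransferase, had a pooled difference of -1.47, EPB41, a protein of the membrane skeleton, of -1.40, PIMREG, a mitotic regulator, of -1.34, and SLC2A1, the glucose transporter GLUT1, of -1.25. The remaining 3 of the 10 largest falls were ADI1, an enzyme of methionine salvage, at -1.22, FAM221A at -1.18 and CDK5RAP3, of the UFM1 ligase complex, at -1.18.

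The clusters that met the criterion in the pooled comparison while none of the 6 single pairs (each of KLF11, A347S and Δ486 against EAPP or empty vector) had an adjusted p under 0.05 numbered 382, or 1.82% of all clusters, with 202 higher and 180 lower. Their median absolute difference was 0.18, or 1.14-fold, and 372 of them lay under 1.25-fold. The construct that lay farthest was divided almost evenly among them. A347S was the farthest of the 3 from EAPP and empty vector in 33.8%, KLF11 in 34.6% and Δ486 in 31.7%. The selection leaves out clusters where 1 construct lay far enough to pass in a pair, so this division follows in part from it. Among all consistent clusters under 1.25-fold, A347S lay farthest in 63.7%. The median gap between the nearest arrays of the 6 and the 4 was 0.04, so the groups were separated narrowly. The number depends on single arrays, being 686 without the first and 719 without the second A347S array and 585 without the first empty vector array, and it was 187 under a limma fit with robust moderation and a variance trend.

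Among those that were higher, MRPS31P5, a pseudogene of a mitochondrial ribosomal protein, had the largest difference and read 6.42 and 6.31 with KLF11, 6.12 and 6.70 with A347S, 6.22 and 6.52 with Δ486, 5.92 and 5.97 with EAPP and 5.98 and 6.07 with empty vector. All 6 arrays exceeded the 4, the second A347S array most and the first least, and the difference was 0.40 (standard error 0.11). TRAPPC2L, a subunit of a vesicle tethering complex, read 8.95 and 8.68 on the KLF11 arrays, 8.74 and 8.87 on those of A347S and 8.83 and 8.82 on those of Δ486, against 8.54 and 8.51 on the EAPP arrays and 8.55 and 8.54 on the empty vector arrays. Its 4 low arrays spanned 0.05 and its difference was 0.28. NECAP1, an adaptor of clathrin-coated vesicles, read 8.57 to 8.68 (median 8.64) in the pooled constructs, against 8.13 to 8.51 with EAPP and empty vector, with the 6 arrays closer together than the 4. WDR5B, a WD40 relative of the histone methyltransferase subunit WDR5, had a difference of 0.34, ZNF140, a KRAB zinc finger repressor, of 0.34, TBC1D9, of a family that acts on Rab GTPases, of 0.33 and POGLUT1, which adds glucose to Notch receptors, of 0.32. PPIL6, PDE6H, GRK4, VSTM1 and PUS7L followed at 0.28 to 0.33.

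AMZ2P1, a metallopeptidase pseudogene, had the largest fall of this kind and read 7.27 and 6.57 with KLF11, 6.83 and 7.18 with A347S, 6.88 and 7.03 with Δ486, 7.65 and 7.51 with EAPP and 7.70 and 7.34 with empty vector. The KLF11 arrays lay farthest apart, and the difference of -0.59 had a standard error of 0.14. HOXB13, a homeobox gene, read 6.08 and 6.22 on the KLF11 arrays, 6.16 and 6.26 on those of A347S and 6.26 and 6.26 on those of Δ486, against 6.44 and 6.53 on the EAPP arrays and 6.62 and 6.33 on the empty vector arrays. Its 6 arrays spanned 0.19 and its difference was -0.27. EPHA7, a receptor of ephrins, read 5.69 and 5.61 on the KLF11 arrays, 5.64 and 5.63 on those of A347S and 5.59 and 5.68 on those of Δ486, against 6.05 and 5.79 on the EAPP arrays and 5.87 and 5.91 on the empty vector arrays. Its 6 arrays spanned 0.10 and its difference was -0.26. SGSH, a lysosomal sulfamidase of heparan sulfate, differed by -0.28, HPS6, of a complex that forms lysosome-related organelles, by -0.27, PLEKHA7, a protein of adherens junctions, by -0.34 and CDC14B, a cell cycle phosphatase, by -0.27. ACBD7, ZNF816, ARSD, DPY19L4 and BAIAP2-DT stood between -0.57 and -0.28.

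Few of these 24 named genes kept their call throughout. TRAPPC2L, AMZ2P1 and HOXB13 met the criterion under all 22 alternatives run for named genes. Leaving arrays out could not change the sign of a difference, since the criterion puts all pooled arrays on 1 side of the others. Another 10 genes lost the call when 1 array was left out. They were MRPS31P5 (0.39 without the first EAPP and 0.38 without the first empty vector array), WDR5B (0.25 without the second EAPP and 0.24 without the first empty vector array), PUS7L (0.22 without the second EAPP array), ACBD7 (-0.43 without the second empty vector array), ARSD (-0.22 and -0.21 without the first EAPP and the first empty vector array), DPY19L4 (-0.24 and -0.25 without the same), HPS6 (-0.24 and -0.19 without the same), TBC1D9 (0.28 without the first KLF11, the first A347S or the second empty vector array, 0.34 without the first EAPP array and 0.31 without the second), GRK4 (0.28 without the second KLF11, 0.26 without the second EAPP, 0.31 without the first and 0.30 without the second empty vector array) and VSTM1 (0.27 without the first KLF11, 0.25 without the second A347S, 0.26 without the second EAPP, 0.28 without the first and 0.32 without the second empty vector array). When the arrays of a whole construct were left out, 19 of the 24 lost the call.

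**Figure D2:**
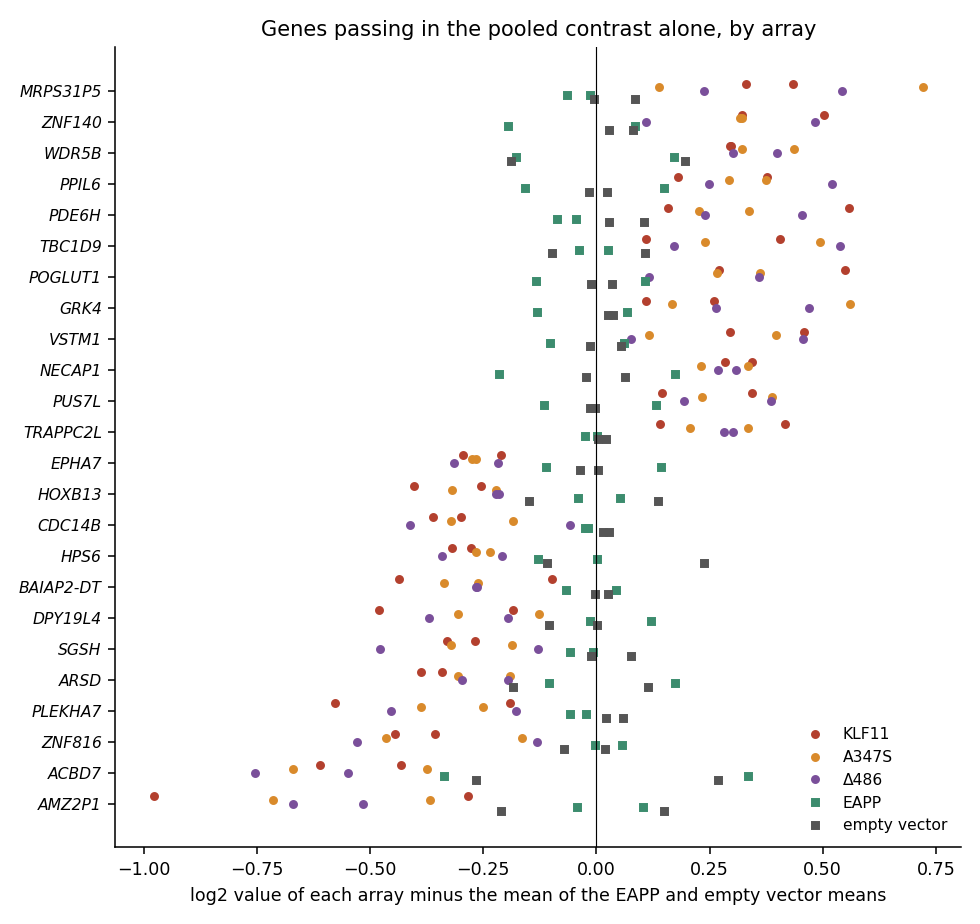
Log2 value of every array minus the mean of the EAPP and empty vector means (horizontal axis) for the 12 largest rises and 12 largest falls that met the criterion in the pooled comparison alone; circles are KLF11, A347S and Δ486 arrays and squares EAPP and empty vector arrays. The circles of each gene lie beyond its squares, by a gap of at most 0.12.

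Some larger changes were also close to equal in the 3 constructs. Among 846 clusters of 1 symbol that changed by at least 1.5-fold, the ratio of the pooled difference to the larger spread of construct means within a side was in median 2.67. EIF2B3, a subunit of the exchange factor for the translation factor eIF2, read 10.28 and 10.16 with KLF11, 10.21 and 10.18 with A347S, 10.17 and 10.23 with Δ486, 9.58 and 9.48 with EAPP and 9.55 and 9.53 with empty vector. The 6 arrays spanned 0.12 and the 4 0.10, with a difference of 0.67 (standard error 0.05). CYB5D1, a cytochrome b5 domain protein, read 9.05 to 9.24 (median 9.17) in the pooled constructs, against 8.39 to 8.43 with EAPP and empty vector. ERCC4, a nuclease of excision repair, read 8.53 to 8.72 (median 8.64) in the pooled constructs, against 7.73 to 7.95 with EAPP and empty vector. The 2 differences were 0.76 and 0.79, with no overlap. TAF1A, of the factor that loads RNA polymerase I, read 8.21 to 8.29 (median 8.25) in the pooled constructs, against 7.58 to 7.69 with EAPP and empty vector. SLC31A2, a copper transporter, and ZNF585B, a zinc finger protein, were higher by 0.70 and 0.90. Among the even falls, DCAF11, a substrate receptor of a ubiquitin ligase, read 6.66 and 6.51 on the KLF11 arrays, 6.72 and 6.48 on those of A347S and 6.81 and 6.57 on those of Δ486, against 7.61 and 7.60 on the EAPP arrays and 7.59 and 7.53 on the empty vector arrays, a difference of -0.96. EPB41 read 6.48 and 6.76 on the KLF11 arrays, 6.55 and 6.37 on those of A347S and 6.57 and 6.61 on those of Δ486, against 7.98 and 7.96 on the EAPP arrays and 7.94 and 7.94 on the empty vector arrays, and its 4 higher arrays spanned 0.04. PDIK1L, a kinase, stood at -0.81, PRKCZ, an atypical protein kinase C, at -0.66, FAM161A, a protein of the ciliary base, at -0.82 and ADI1 at -1.22.

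The 3 constructs did not contribute equally to the consistent changes. A347S lay farthest from EAPP and empty vector in 3916 of the 5199 clusters, or 75.3%, Δ486 in 755 and KLF11 in 528. This share grew with the size of the difference, being 63.7% under 1.25-fold, 80.3% from 1.25-fold to 1.5-fold and 89.7% at 1.5-fold or more. The A347S change was in median 118% of the pooled difference (quartiles 109% and 128%), that of Δ486 96.2% and that of KLF11 84.6%. For single clusters these differences did not pass. The limma F test among KLF11, A347S and Δ486 called 0 clusters at an adjusted p (0% of those fitted), with 2589 at an unadjusted p under 0.05 and 40 at an adjusted p when a variance trend with robust moderation was fitted. IDH1 illustrates the order, with changes of -1.20 for KLF11, -1.87 for A347S and -1.55 for Δ486 against the mean of EAPP and empty vector. TGFBR1, a TGF-beta receptor, stood at -0.75, -1.30 and -0.92 in the same order, while EIF2B3 stood at 0.69, 0.66 and 0.66.

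**Figure D3:**
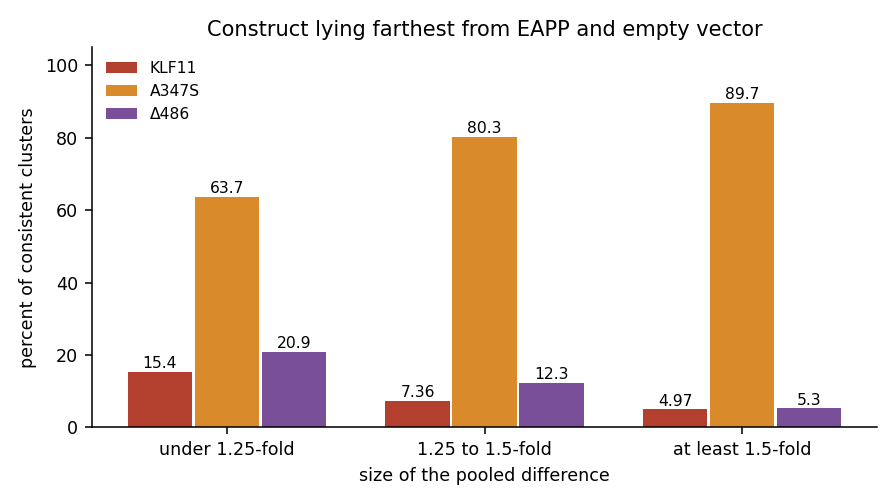
Percent of consistently changed clusters (vertical axis) in which KLF11, A347S or Δ486 lay farthest from the mean of EAPP and empty vector, by size of the pooled difference (horizontal axis). The A347S bar grows from 63.7% in the smallest class to 89.7% in the largest.

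On the other side of the division, EAPP mostly lay a little toward the pooled constructs. Of the 5199 clusters, the EAPP mean lay on the pooled side of empty vector in 3651 and beyond empty vector in 1547, and its median position was 13.8% of the way from empty vector to the pooled mean. Empty vector enters both parts of that ratio, and the likeness of EAPP and empty vector was used in forming the groups. CFAP43, a protein of cilia and flagella, read 5.99 and 6.03 with KLF11, 6.56 and 6.56 with A347S, 5.91 and 6.25 with Δ486, 5.37 and 4.98 with EAPP and 4.17 and 4.37 with empty vector, so the EAPP arrays stood 0.90 above empty vector. SAXO2, a microtubule-binding protein of cilia, had an EAPP value 0.71 above empty vector. MPC1, of the carrier that takes pyruvate into mitochondria, read 6.71 and 6.93 on the KLF11 arrays, 7.02 and 7.04 on those of A347S and 7.07 and 7.40 on those of Δ486, against 7.88 and 7.57 on the EAPP arrays and 8.48 and 8.46 on the empty vector arrays, a difference of -1.07. PDP1, the phosphatase that activates pyruvate dehydrogenase, read 7.06 and 6.87 on the KLF11 arrays, 6.85 and 6.67 on those of A347S and 7.16 and 6.99 on those of Δ486, against 7.47 and 7.52 on the EAPP arrays and 8.10 and 8.08 on the empty vector arrays, a difference of -0.86. In both, EAPP stood between the groups, at -0.75 and -0.60 from empty vector. The other 3 such falls were RHBDL2, a membrane protease, JARID2, a subunit of Polycomb repressive complexes, and NRG1, a ligand of ERBB receptors. EAPP stood at -0.59, -0.58 and -0.55 from empty vector, and their pooled differences were -0.74, -0.53 and -0.56. RHBDL2 lost its call under cyclic loess scaling (-0.69), and JARID2 when the empty vector arrays were left out (-0.24). BDH1 was the 1 cluster with an adjusted p under 0.05 between EAPP and empty vector (0.00477% of those fitted), where 1829 had an unadjusted p under 0.05 and 72 an adjusted p under 0.05 with a variance trend and robust moderation. Its EAPP value no longer passed when either A347S array, either empty vector array or the second EAPP array was left out.

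The members of 38 gene lists were then read on the same scale, each gene by its brightest cluster. Over all 18377 genes 10.6% were consistently higher and 14.9% lower, with a median difference of 0.00. Both shares were larger among well expressed genes. Of the 5669 genes at a mean log2 level of at least 8, 1199 were consistently higher and 1614 lower. Most of the lists had a median level over 8, so the shares over all genes are a low standard for them. Among the lists nearest to the engineered domains, that of Sin3 was mixed and those of the G protein beta subunits and of HP1 held no higher gene. Of 23 genes of the Sin3 and histone deacetylase complex, to which EAPP no longer couples, 7 were higher and 8 lower (median -0.09). SIN3A, the scaffold, read 7.70 to 8.06 (median 7.98) in the pooled constructs, against 8.41 to 8.64 with EAPP and empty vector. HDAC1, a deacetylase, read 11.54 to 11.79 (median 11.68) in the pooled constructs, against 12.23 to 12.28 with EAPP and empty vector. ING2, which reads methylated histone H3, read 7.48 to 7.90 (median 7.69) in the pooled constructs, against 8.34 to 8.54 with EAPP and empty vector. All 3 were lower without overlap, by 0.58, 0.57 and 0.78. MXD1, a MYC antagonist that recruits Sin3, stood at -0.57. Of 5 G protein beta subunits, which are WD40 proteins, 4 were lower (median -0.21). GNB1 stood at -0.40 and GNB4 at -0.27, while GNB5, at -0.21, lost its call when duplicate arrays were averaged. GNB2 lay at -0.15 and lost its call under 17 of 22 alternatives. Of 21 genes of HP1 and histone H3 lysine 9 methylation, 0 were higher and 11 lower (median -0.17). MPHOSPH8, a reader of that mark, read 8.13 and 8.17 on the KLF11 arrays, 7.88 and 7.77 on those of A347S and 8.23 and 8.08 on those of Δ486, against 8.61 and 8.59 on the EAPP arrays and 8.78 and 8.74 on the empty vector arrays. It lay 0.64 lower. EHMT2, the methyltransferase G9a, was at -0.52, KDM3A, a demethylase of the same residue, at -0.50 and ATRX, a chromatin remodeller of heterochromatin, at -0.44.

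Among the relatives of KLF11, 8 of 25 Krüppel-like and SP factors were lower and 0 higher, with a median of 0.03 over the list (-0.02 to 0.05 over the alternatives). SP1, the GC box factor found in most cells, read 8.67 and 8.79 with KLF11, 8.58 and 8.10 with A347S, 8.63 and 8.47 with Δ486, 9.18 and 9.13 with EAPP and 9.52 and 9.40 with empty vector. Both EAPP arrays lay below empty vector and the pooled arrays lower still, a difference of -0.77 (standard error 0.09). KLF10, the closest relative of KLF11 and like it induced by TGF-beta, read 7.87 and 7.87 on the KLF11 arrays, 7.63 and 7.63 on those of A347S and 7.70 and 7.65 on those of Δ486, against 8.18 and 7.96 on the EAPP arrays and 8.48 and 8.52 on the empty vector arrays, a difference of -0.56. SP4 and KLF12, a neuronal SP factor and a repressor, stood at -0.56 and -0.53. In the TGF-beta pathway 4 of 28 genes were higher and 12 lower (median -0.24, and -0.15 to -0.28 over the alternatives). The kinase receptor TGFBR1 read 6.82 to 7.47 (median 7.28) in the pooled constructs, against 8.11 to 8.30 with EAPP and empty vector. Its signal transducer SMAD2 read 7.71 to 8.15 (median 7.92) in the pooled constructs, against 8.62 to 8.85 with EAPP and empty vector. They were lower by 0.99 and 0.83, and the BMP receptor BMPR2 by 0.69. BAMBI, a decoy receptor that inhibits the pathway, went the other way and read 6.53 to 7.21 (median 7.02) in the pooled constructs, against 5.62 to 6.07 with EAPP and empty vector, a difference of 1.10. Integrins and matrix adhesion genes were lower in 9 of 27 and higher in 2, led by FERMT2, an activator of integrins, at -0.60, with ITGA6, ITGA2 and ITGB5 at -0.46 to -0.43.

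Lipid and amino acid metabolism held the lists with the lowest medians. All 19 measured genes of cholesterol synthesis had negative differences and 13 were consistently lower (median -0.33), which was -0.35 against empty vector alone and -0.30 against EAPP alone, comparisons that share the 6 pooled arrays. LSS, which closes the sterol ring, read 8.12 and 8.31 with KLF11, 8.09 and 7.78 with A347S, 8.04 and 8.06 with Δ486, 8.75 and 8.98 with EAPP and 9.18 and 9.10 with empty vector. The pooled arrays were all lower than the others, A347S most, by 0.94 (standard error 0.08). DHCR7, the last reductase of the pathway, read 10.16 and 10.28 on the KLF11 arrays, 9.91 and 9.80 on those of A347S and 10.21 and 10.05 on those of Δ486, against 10.84 and 10.88 on the EAPP arrays and 10.81 and 10.90 on the empty vector arrays, a difference of -0.79. ACAT2, which makes acetoacetyl-CoA, stood at -1.09 and TM7SF2, a sterol reductase, at -0.74. In fatty acid synthesis and desaturation 11 of 21 were lower and 4 higher (median -0.33). FASN, the fatty acid synthase, read 8.31 to 8.70 (median 8.53) in the pooled constructs, against 9.21 to 9.39 with EAPP and empty vector. ELOVL1, an elongase of very long chains, read 8.0 to 8.64 (median 8.29) in the pooled constructs, against 9.07 to 9.58 with EAPP and empty vector. Their differences were -0.78 and -1.0, that of LPIN1, a phosphatidate phosphatase, was -0.85, and that of GPAM, which starts glycerolipid synthesis, was 0.78. Branched-chain amino acid catabolism had the lowest median of all the lists, at -0.42, with 14 of 23 lower and 3 higher. IVD, the isovaleryl-CoA dehydrogenase, read 7.96 and 8.10 on the KLF11 arrays, 7.64 and 7.65 on those of A347S and 7.93 and 7.72 on those of Δ486, against 8.99 and 8.93 on the EAPP arrays and 9.03 and 9.05 on the empty vector arrays. It lay 1.17 lower. BCKDHB, a subunit of the branched-chain ketoacid dehydrogenase, BCAT2, the mitochondrial transaminase, and MMUT, the methylmalonyl-CoA mutase, stood at -0.97, -0.90 and -0.87.

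In carbon metabolism too, lower genes outnumbered higher ones. They did so as well among all 5669 genes at a mean log2 level of at least 8, at 1614 against 1199. In the tricarboxylic acid cycle and pyruvate entry, 16 of 30 genes were lower and 7 higher (median -0.18). IDH2, the mitochondrial counterpart of IDH1, read 9.06 to 9.33 (median 9.24) in the pooled constructs, against 10.10 to 10.28 with EAPP and empty vector, a difference of -0.95. Glycolysis had 11 of 20 lower and 0 higher (median -0.15), led by SLC2A1, which read 7.58 to 8.06 (median 7.84) in the pooled constructs, against 8.95 to 9.22 with EAPP and empty vector. ALDOC, an aldolase, stood at -0.95, PFKL, a phosphofructokinase, at -0.64 and HK1, a hexokinase, at -0.43. Mitochondrial fatty acid oxidation was lower in 7 and higher in 3 of 18 (median -0.06). CPT1A, which loads fatty acids onto carnitine, stood at -0.91 and ETFDH, which passes their electrons to ubiquinone, at 0.64. In the respiratory chain, higher genes outnumbered lower ones. Complex I subunits were higher in 9 of 34 and lower in 1 (median 0.11), and complexes II to V higher in 13 of 35 and lower in 0 (median 0.15, and 0.09 without the second empty vector array). NDUFA5, of complex I, read 10.44 and 10.41 on the KLF11 arrays, 10.66 and 10.82 on those of A347S and 10.24 and 10.53 on those of Δ486, against 9.82 and 9.66 on the EAPP arrays and 9.66 and 9.55 on the empty vector arrays, a difference of 0.84. COX6A1, of cytochrome oxidase, stood at 0.39 and SDHD, of succinate dehydrogenase, at 0.34. Mitochondrial ribosomal proteins were higher in 21 of 74 and lower in 8 (median 0.08), with MRPL13 at 0.76 and MRPS12 at 0.44.

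The highest medians were those of the vacuolar ATPase, the proton pump of lysosomes, and of ciliary transport. Of 16 pump genes 11 were higher and 1 lower (median 0.41, and 0.38 to 0.46 over the alternatives), with medians of 0.44 against empty vector alone and 0.42 against EAPP alone. ATP6V1D read 10.65 and 10.55 with KLF11, 10.86 and 10.85 with A347S, 10.35 and 10.82 with Δ486, 10.15 and 9.90 with EAPP and 9.89 and 9.85 with empty vector. ATP6V1H read 9.54 to 9.94 (median 9.84) in the pooled constructs, against 8.95 to 9.0 with EAPP and empty vector. ATP6V1F read 9.94 to 10.23 (median 10.08) in the pooled constructs, against 9.31 to 9.57 with EAPP and empty vector. The differences of these 3 subunits of the outer, ATP-splitting part were 0.73, 0.83 and 0.63. ATP6AP1, an accessory subunit, went the other way and read 9.17 and 9.32 on the KLF11 arrays, 9.15 and 9.09 on those of A347S and 9.40 and 9.41 on those of Δ486, against 10.21 and 10.27 on the EAPP arrays and 10.38 and 10.36 on the empty vector arrays, a difference of -1.05 with no overlap. Lysosomal hydrolases were higher in 11 of 31 and lower in 7 (median 0.09), led by GLA, an alpha-galactosidase, at 0.93, FUCA1, a fucosidase, at 0.75, CTSA, a protective carboxypeptidase, at 0.59 and TPP1, a tripeptidyl peptidase, at 0.55. Autophagy genes were higher in 8 of 31 and lower in 2 (median 0.02), with ATG4C, a protease of ATG8 proteins, at 0.90, PIK3R4, a subunit of the VPS34 kinase, at 0.82 and WIPI1, a phosphoinositide reader, at -0.73.

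Intraflagellar transport, which moves cargo along cilia, and the BBSome, its cargo adaptor, had 21 of 37 genes higher and 1 lower (median 0.27). ARL6, the GTPase that brings the BBSome to membranes, read 8.67 and 8.35 with KLF11, 8.73 and 8.81 with A347S, 8.24 and 8.69 with Δ486, 7.56 and 7.16 with EAPP and 7.45 and 7.42 with empty vector. IFT20, which links the Golgi to the cilium, read 8.18 and 7.86 on the KLF11 arrays, 8.47 and 8.40 on those of A347S and 8.0 and 8.27 on those of Δ486, against 6.93 and 7.05 on the EAPP arrays and 7.20 and 7.04 on the empty vector arrays. Neither overlapped between the groups, and the differences were 1.18 (standard error 0.11) and 1.14 (standard error 0.08). IFT56 stood at 0.84, while IFT25, another subunit of the same transport complex, read 7.26 to 7.93 (median 7.39) in the pooled constructs, against 8.26 to 8.51 with EAPP and empty vector. It lay 0.90 lower.

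The promoters of genes from the ciliary list, which was mostly higher, and from the cholesterol list, which was mostly lower, were set side by side, since KLF11 is known to bind CCCCGC and CCCCAC. Shown are the 2 largest rises of the ciliary list and the largest falls of the cholesterol list with a promoter in the table used, each with 250 bases before and 50 after the start, 5′ to 3′ on the gene's strand, from RefSeq on GRCh38.p14. Capitals mark CCCCGC and CCCCAC on either strand (GCGGGG and GTGGGG on the other).
ARL6 (chr3:97764508-97764807, plus strand): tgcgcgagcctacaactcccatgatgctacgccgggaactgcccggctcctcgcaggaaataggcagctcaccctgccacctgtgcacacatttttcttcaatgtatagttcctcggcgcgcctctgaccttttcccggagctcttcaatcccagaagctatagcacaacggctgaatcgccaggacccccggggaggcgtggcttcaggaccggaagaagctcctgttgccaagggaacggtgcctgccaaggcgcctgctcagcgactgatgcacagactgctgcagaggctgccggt
IFT20 (chr17:28335423-28335722, minus strand): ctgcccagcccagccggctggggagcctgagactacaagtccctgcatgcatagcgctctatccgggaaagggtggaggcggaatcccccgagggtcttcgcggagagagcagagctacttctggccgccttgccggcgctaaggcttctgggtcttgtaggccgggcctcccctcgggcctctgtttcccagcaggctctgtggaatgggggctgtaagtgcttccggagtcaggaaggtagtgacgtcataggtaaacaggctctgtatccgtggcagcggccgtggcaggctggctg
LSS (chr21:46228725-46229024, minus strand): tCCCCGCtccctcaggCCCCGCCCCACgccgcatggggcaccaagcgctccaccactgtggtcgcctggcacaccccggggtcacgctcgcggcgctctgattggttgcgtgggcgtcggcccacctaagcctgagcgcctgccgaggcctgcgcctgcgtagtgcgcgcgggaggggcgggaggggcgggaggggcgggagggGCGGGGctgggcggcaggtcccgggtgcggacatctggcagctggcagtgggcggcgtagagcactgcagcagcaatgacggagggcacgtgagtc
DHCR7 (chr11:71448344-71448643, minus strand): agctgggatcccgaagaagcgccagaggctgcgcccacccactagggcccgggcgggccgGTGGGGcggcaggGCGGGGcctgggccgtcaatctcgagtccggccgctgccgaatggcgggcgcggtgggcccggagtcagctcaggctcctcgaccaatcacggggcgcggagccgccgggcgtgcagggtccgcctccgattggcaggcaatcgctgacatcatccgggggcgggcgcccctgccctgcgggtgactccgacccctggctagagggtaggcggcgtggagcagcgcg
The GC content was 60.3% for ARL6 and 63.7% for IFT20, with 0 matches of either motif, and 74.7% for LSS and 75% for DHCR7, with 3 and 1 matches of CCCCGC and 1 match each of CCCCAC. These 4 are the farthest members, in the main direction of their lists, with a promoter in the table used. Over all members with a promoter, CCCCGC stood in 18 of 34 of the ciliary and 14 of 17 of the cholesterol list, and the median GC content was 61.5% and 67.7%.

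A contrast in the same direction was seen between all genes that were higher and all that were lower, taken as 2 sets. The promoter table held 1659 of 1953 genes that were higher and 2274 of 2739 that were lower, the first listed start of each being used. CCCCGC stood in 51.5% of the promoters of genes that were higher and 76.2% of those of genes that were lower, against 41.2% of all 27305 genes of the table. For CCCCAC these shares were 28.2%, 41.5% and 32.5%. The motifs can overlap by shared bases, and a match is a description of letters, not a site. CCCCGC holds only G and C, and its shares were not compared at equal GC content. A difference in this motif therefore cannot be told apart here from one in GC content. The median GC content was 61.3% for genes that were higher and 69.3% for genes that were lower, against 58.3% in the table. At 1.5-fold or more, CCCCGC stood in 41.9% of rises and 83.6% of falls. Expressed genes have GC-rich promoters, so the shares were read again among genes with a mean log2 level of at least 8. There CCCCGC stood in 52.6% of rises, 76.1% of falls and 65.7% of genes that met the criterion in neither direction.

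With these 4821 genes divided into 4 near-equal bins by the GC content of the promoter, the share consistently higher was 32.0%, 29.5%, 16.9% and 6.99% from the lowest to the highest bin, and the share consistently lower 18.0%, 18.5%, 32.0% and 46.5%. The median pooled difference was 0.06 in the lowest and -0.18 in the highest bin. In the highest bin it was -0.13 for KLF11, -0.24 for A347S and -0.19 for Δ486, while EAPP differed from empty vector by -0.05. The difference between the median centred values of the highest and the lowest bin was -0.17 to -0.04 on the 6 pooled arrays, against 0.11 to 0.17 on the 4 EAPP and empty vector arrays. It was close within duplicates, at -0.13 and -0.17 with A347S and 0.16 and 0.17 with empty vector, and no pooled array overlapped the others. The base composition of the probes was not analysed here, and its part in this pattern was not tested.

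**Figure D4:**
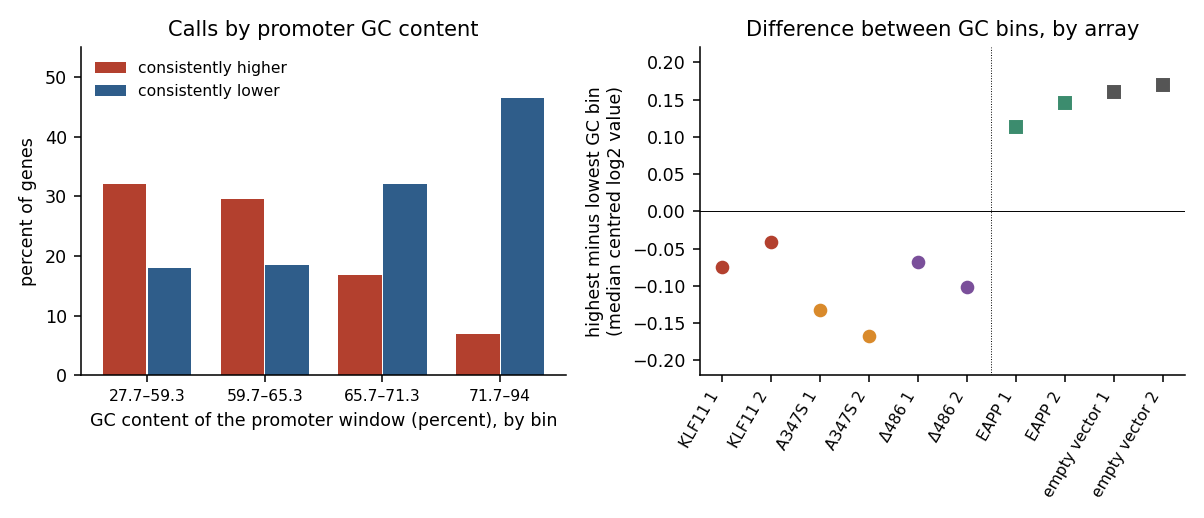
Left, percent of the 4821 genes at a mean log2 level of at least 8 (vertical axis) that were consistently higher (red) or lower (blue), by bin of promoter GC content in percent (horizontal axis); right, for each array, the median centred log2 value of the highest minus that of the lowest GC bin. The share of genes that were higher drops to 6.99% and that of genes that were lower reaches 46.5% in the highest bin, and the 6 KLF11, A347S and Δ486 arrays lie below 0 and the 4 others above it.

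Lists of growth and the cell cycle ran in both directions. Ribosome biogenesis and RNA polymerase I genes were higher in 16 of 41 and lower in 7 (median 0.13). RRP12, which exports ribosomal subunits, read 9.63 and 9.63 on the KLF11 arrays, 9.78 and 9.91 on those of A347S and 9.76 and 9.80 on those of Δ486, against 8.90 and 9.03 on the EAPP arrays and 8.77 and 8.77 on the empty vector arrays, a difference of 0.88. DDX10, a helicase of the same pathway, stood at 0.88, POLR1F, a subunit of RNA polymerase I, at 0.77 and UTP20, of the small subunit processome, at 0.74. Cytosolic ribosomal proteins were flat by comparison, with 3 of 56 higher and 0 lower (median 0.04), RPS23 being the farthest at 0.33. DNA replication genes were higher in 12 of 44 and lower in 9, with GINS3, of the replicative helicase, at 0.80 and POLE, a leading strand polymerase, at -0.65. Mitotic genes were higher in 10 of 39 and lower in 7. KIF20A, a kinesin of cytokinesis, read 10.15 to 10.42 (median 10.25) in the pooled constructs, against 9.14 to 9.35 with EAPP and empty vector, a difference of 1.00, CENPE, a kinetochore kinesin, stood at 0.84 and CDC25B, a phosphatase that starts mitosis, at -0.88. Of p53 targets 2 of 23 were higher and 8 lower, among them CCNG1, a cyclin, at -0.56 and TIGAR, a regulator of glycolysis, at -0.55.

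In the secretory pathway and in stress responses, chaperones of the endoplasmic reticulum and unfolded protein response genes were lower in 11 of 23 and higher in 6 (median -0.18). ERO1A, an oxidase that forms disulfide bonds, read 8.97 to 9.41 (median 9.18) in the pooled constructs, against 9.83 to 10.22 with EAPP and empty vector, and lay lower. Its paralogue ERO1B read 7.98 to 8.38 (median 8.27) in the pooled constructs, against 7.38 to 7.74 with EAPP and empty vector and lay higher. The differences of the 2 paralogues were -0.79 and 0.68. HYOU1, a chaperone, stood at -0.76 and ATF6, a sensor of unfolded proteins, at 0.60. Coat proteins of COPII and COPI vesicles were higher in 12 of 28 and lower in 7, with the COPII subunits SEC24A at 0.78 and SEC23A at -0.57. Hypoxia response genes were lower in 9 of 25 and higher in 2 (median -0.11), with BNIP3, a mitophagy receptor, at -0.85 and P4HA2, a collagen hydroxylase, at 0.51. In the ATF4 amino acid response 3 of 23 were higher and 2 lower, and the median of -0.15 turned to 0.10 when the empty vector arrays were left out. DDIT4, an inhibitor of TOR signalling, read 8.27 and 8.02 with KLF11, 7.70 and 7.52 with A347S, 7.98 and 7.96 with Δ486, 8.31 and 8.22 with EAPP and 9.11 and 9.11 with empty vector. Its EAPP arrays overlapped the pooled ones, so it met the criterion in neither direction, with a difference of -0.78. ASNS, which makes asparagine, read 10.98 and 10.74 on the KLF11 arrays, 10.86 and 10.69 on those of A347S and 10.72 and 10.84 on those of Δ486, against 10.28 and 10.15 on the EAPP arrays and 10.60 and 10.56 on the empty vector arrays, where EAPP lay lowest, and its difference of 0.41 was 0.23 without the EAPP arrays and no longer met the criterion. Of interferon response genes 4 of 37 were higher and 4 lower, the farthest being HERC5, a ligase for the ubiquitin-like ISG15, at 0.75.

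In the remaining lists, ubiquitin-conjugating enzymes were lower in 11 of 23 and higher in 2 (median -0.14), with UBE2H, at 0.56, against the direction of the list. Proteasome subunits were higher in 9 of 30 and lower in 2, PSMD6 reaching 0.39, and aminoacyl-tRNA synthetases higher in 5 of 19 and lower in 1, RARS1 reaching 0.40. Nuclear pore proteins were higher in 11 and lower in 6 of 27, spliceosome core proteins in 9 and 6 of 32, Mediator subunits in 8 and 4 of 29, NRF2 and glutathione genes in 4 and 4 of 28, cohesin and condensin in 3 and 4 of 21, and cytosolic chaperonin and heat shock genes in 2 and 2 of 20. Their medians lay between -0.07 and 0.09. MED21, a Mediator subunit, stood at 0.62 and SEH1L, of the nuclear pore, at -0.63.

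**Figure D5:**
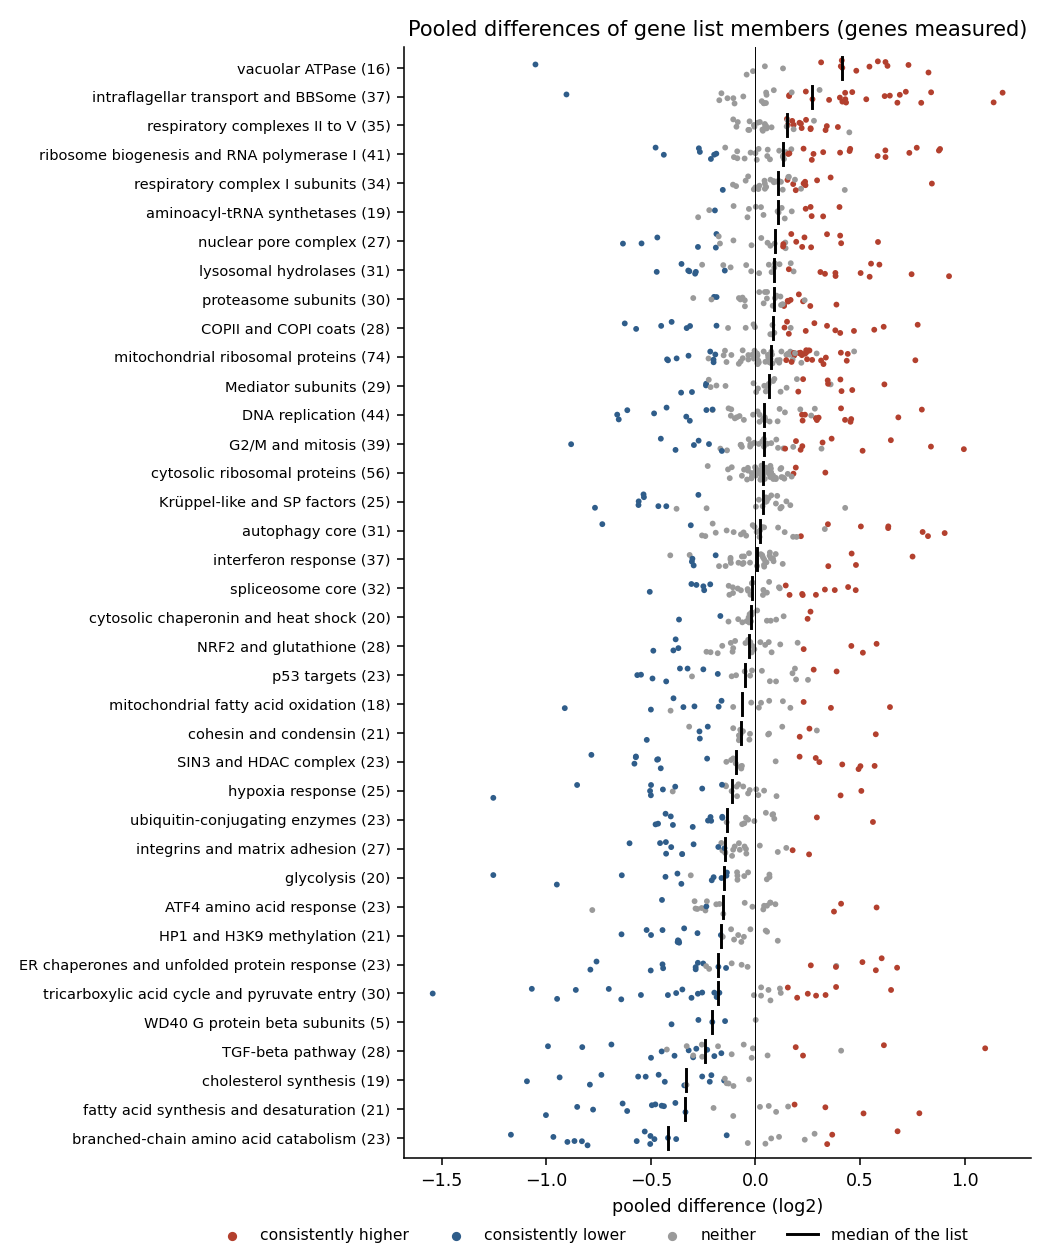
Pooled difference (log2, horizontal axis) of every measured gene of the 38 lists (vertical axis, number of genes measured in parentheses), red where consistently higher, blue where consistently lower and grey otherwise, with a black line at the median. The medians run from -0.42 for branched-chain amino acid catabolism to 0.41 for the vacuolar ATPase.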

How the data were processed

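The deposited log2 values, 1 column per array, were made by the authors from Human Gene 1.0 ST arrays by robust multi-array averaging in Partek (version 6.6, per the submitters' processing notes), and were used with no further scaling. Clusters were named from the platform annotation, with symbols checked against RefSeq. Each cluster was fitted in limma (3.58.1, R 4.3.3) with 5 construct means, and Benjamini-Hochberg adjustment ran over 20961 clusters. The fit was also run on simulated arrays with few changed clusters and independent noise of the size seen between duplicates. That run cannot show whether the errors cover the spread between cultures. A gene with several clusters was read from the one with the highest mean. Text names were taken, among clusters of 1 symbol, from the 10 largest rises and falls, the 12 largest each way seen in the pooled comparison alone, the 6 most even, the 5 with the largest like-signed EAPP shift, and the 4 farthest members of each list. PIK3CD, HS6ST1 and marker genes beyond these were named after their values were seen. The grouping, members and lists were chosen with earlier results of these data known. Promoters were RefSeq windows, the first listed per gene. Alternatives changed the overlap condition, moderation, scaling, filters, replicate block, and arrays or constructs used. No depth applies to arrays, and their number limits the precision.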

Additional observations from a re-analysis of the deposited data

Results flagged for a closer look

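Of 464 groups, each the 6 or the 4 arrays of a named cluster, 16 held an array far from the rest (3.45%). Most of these clusters were chosen for sides that did not overlap, so a chance rate of 1 in 20 is no standard for this share. Among the 6 pooled arrays, the second A347S array was lowest for PDIK1L, at 6.48 with the next at 6.59, for JARID2, at 6.21 with the next at 6.51, and for ATRX, at 8.72 with the next at 8.81. It was also lowest for FERMT2, at 8.56 with the next at 8.88, and for UBE2Q1, at 8.72 with the next at 8.91. The first Δ486 array was lowest for PSMA3, at 10.38 with the next at 10.63, and the first KLF11 array for ITGAM, at 5.22 with the next at 5.48. Among the 4 others, the first EAPP array was highest for ATP6V1D, at 10.15 with the next at 9.90, and for ATG4C, at 7.36 with the next at 7.12. The second EAPP array was lowest for MED10, at 8.68 with the next at 9.06, and for UBE2H, at 9.54 with the next at 9.67, and highest for NUP93, at 9.84 with the next at 9.72. The second empty vector array was lowest for SDHD, at 11.16 with the next at 11.40, and for GSTA4, at 5.61 with the next at 5.82, and highest for KRT18, at 13.25 with the next at 13.12. The first empty vector array was highest for GNB2, at 9.50 with the next at 9.43.

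BDH1 moved in opposite directions from empty vector, by -1.10 in the pooled constructs and by 1.19 with EAPP, with all 6 and both arrays on their own side. The change with EAPP had an adjusted p of 0.0127 in limma, and the pooled constructs differed from EAPP by -2.29. Among the 7908 clusters without a gene symbol, which the comparisons did not use, 342 met the criterion (4.32%), with 140 higher and 202 lower and a largest absolute difference of 1.62.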

How the results depend on the processing

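Consistent rises and falls kept their order of size under the other settings, except that at 1.5-fold or more 474 were higher and 431 lower. Their numbers were 2473 and 2600 with cyclic loess scaling, and 2011 to 2376 and 2779 to 3172 with 1 array left out. With a replicate block they were 2148 and 2945, and clusters seen in the pooled comparison alone 446. Same-numbered deviations correlated at -0.35 to 0.145 between constructs and 1 of 10 pairs exceeded 0.1, so arrays of 1 number did not deviate together throughout. A negative value means that arrays of opposite number deviated together. A factor shared by arrays across the numbering was not tested. The clusters of the pooled comparison alone (382) numbered 652 with no condition on overlap, 1 at 1.5-fold, 187 with a variance trend and robust moderation, 590 with clusters lacking a symbol included, 616 without KLF11, 684 without A347S, 581 with pairs against empty vector alone, and 384 to 719 with 1 array left out. The share with A347S farthest (75.3%) was 89.7% at 1.5-fold and 67.4% to 77.7% with 1 array left out. Differences among the 3 constructs were called in 40 clusters with a trend, 4 with dim clusters left out and 0 to 1 with 1 array left out. For EAPP minus empty vector, 72 clusters were called with a trend, 3 with dim clusters left out, 0 without A347S and 0 to 1 with 1 array left out. The ATF4 list's median was 0.105 without the empty vector arrays, against -0.15. The cause of these shifts was not tested. Of 5104 values of named clusters 0 changed sign, and 140 calls were lost, in 36 clusters. In the 201 of 232 named clusters that met the criterion, leaving arrays out could not change a sign, because the groups did not overlap. The count of 0 therefore follows in part from the choice of clusters. With promoters in 4 GC bins, the highest held 54 to 100 rises and 434 to 611 falls, the lowest 339 to 471 and 170 to 277, a comparison added after seeing the data.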
